A study of Mus musculus with 12 samples.

Results

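The genes described here are 10 members of the Notch pathway and of the family of Hes-related transcriptional repressors, out of 21300 genes named on the microarray. They are the ligand genes *Jag1*, *Jag2* and *Dll1*, the receptor genes *Notch1*, *Notch2* and *Notch3*, and the repressor genes *Hes1*, *Hey1*, *Hey2* and *Helt*. Members were chosen by the gene symbol that the array files attach to each spot, which gave 14 probes among the 41174 distinct probes and 32 spots per array. RNA came from C57MG, an established mouse mammary epithelial cell line. Monolayers were kept in plain medium without serum for 24 h with the carrier protein BSA as vehicle control, with recombinant human Rspo2 at 100 ng/ml, with recombinant mouse Wnt3a at 100 ng/ml, or with both proteins at these doses. Each of the 4 groups had 3 biological replicates, each measured on its own single-colour Agilent array, so 12 arrays were compared. Between 51.3% and 64.2% of probes were well above background per array, the highest shares being those of BSA replicate 1 and of combination replicate 1 (61.7%), and the number of arrays limits the precision of every value. Hybridization used 3 slides of 4 arrays. All BSA arrays shared slide 1 with 1 Rspo2 array, the other 2 Rspo2 arrays shared slide 2 with 2 Wnt3a arrays, and the remaining Wnt3a array shared slide 3 with all combination arrays, so no slide held BSA together with Wnt3a or with the combination.

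Of 5 luminal epithelial marker genes only *Krt8* stood well above background in every replicate of a group, and *Cdh1*, which encodes E-cadherin, was so on none of the 12 arrays. All 4 basal and myoepithelial markers (*Krt5*, *Krt14*, *Trp63*, *Acta2*) and 4 of 5 mesenchymal markers were detected. Of markers of other cell types, 1 of 4 endothelial genes (*Cdh5*) and 2 of 3 leukocyte genes (*Cd68*, *Cd3e*) were detected. On the whole array, 22751 of 41174 probes were detected by the same rule. The share of each cell type in the culture was not measured, and in bulk RNA fewer expressing cells and less RNA per cell cannot be told apart.

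Notch receptors are bound by Jagged and Delta-like ligands on neighbouring cells. Binding exposes the receptor to cleavage by an ADAM protease and then by the gamma-secretase complex, and the freed intracellular part enters the nucleus, where it joins the DNA-binding protein Rbpj and Mastermind-like coactivators. Genes of the Hes and Hey families are the best known targets. They encode basic helix-loop-helix repressors, many of which recruit corepressors of the Tle (Groucho) family. Helt is a Hes- and Hey-related repressor best known from the developing midbrain. In the mammary gland, Notch signalling is known for its part in luminal cell fate, while Wnt3a acts through β-catenin and Tcf/Lef factors and R-spondins potentiate Wnt signals.

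Among the members, *Helt* and *Notch1* were the genes with changes of at least 2-fold that passed the test. Promoters are shown for these genes because they changed at least 2-fold against BSA, and 8 of the 10 member genes had an entry in the promoter table. The sequences run 5′ to 3′ on the gene's strand from 250 bases before the annotated start to 50 bases from it, and are RefSeq sequences of build GRCm38.p6. Capitals mark matches, on either strand, to 4 motifs: ATCAAAG (Tcf/Lef), TGGGAA (Rbpj), CACGTG (E box) and CACGAG (N box).
*Helt*, chr8:46294622-46294921, minus strand: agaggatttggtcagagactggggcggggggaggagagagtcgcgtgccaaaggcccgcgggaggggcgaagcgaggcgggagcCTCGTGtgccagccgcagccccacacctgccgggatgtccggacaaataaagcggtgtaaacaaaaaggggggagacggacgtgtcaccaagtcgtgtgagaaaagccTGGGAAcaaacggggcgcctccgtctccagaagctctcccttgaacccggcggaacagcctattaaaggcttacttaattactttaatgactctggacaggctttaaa
*Notch1*, chr2:26503773-26504072, minus strand: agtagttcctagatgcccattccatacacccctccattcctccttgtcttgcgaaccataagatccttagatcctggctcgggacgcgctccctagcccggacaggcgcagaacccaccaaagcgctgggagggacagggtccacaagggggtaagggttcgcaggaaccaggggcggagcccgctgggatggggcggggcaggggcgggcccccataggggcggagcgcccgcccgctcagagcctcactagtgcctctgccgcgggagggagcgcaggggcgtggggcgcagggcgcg

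The *Helt* window held 1 match to the Rbpj motif on the gene's own strand, with its first base at position -58 relative to the start, and 1 match to the N box on the opposite strand (read here as CTCGTG) at position -166. The Rbpj motif was present in 25.6% and the N box in 6.47% of the 32851 promoters of this length in the table. The Tcf/Lef motif, found in 3.73% of promoters, and the E box, found in 7.15%, had no match in the *Helt* window, and none of the 4 motifs had a match in the *Notch1* window. The Rbpj and N box matches in the *Helt* window did not overlap each other. A match describes the letters only, and the GC content was 58.3% for *Helt* and 68.3% for *Notch1*.

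Detection required the scanner's call of well above background in every replicate of some group (all 3 arrays). Of the 14 member probes 8 met this, as did 22751 of the 41174 probes on the array. The 8 probes belonged to 5 genes (*Jag1*, *Notch1*, *Notch2*, *Hes1* and *Helt*). The other 5 genes, *Jag2*, *Dll1*, *Notch3*, *Hey1* and *Hey2*, had no detected probe and were not tested. Of these, *Dll1* and *Hey2* were well above background on none of the 12 arrays. *Dll1* was printed as 10 spots per array, and only 2 of its 120 spot readings were well above background. *Jag2* and *Notch3* each passed on 1 array, BSA replicate 1, and *Hey1* passed on 1 array, Rspo2 replicate 3. The processed intensities of these 5 genes lay between 3.13 and 37.6, while the 75th percentile of all probes lay between 773.9 and 1146 per array. Their true levels below background are not known, and no fold change is given for them.

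**Figure D1:**
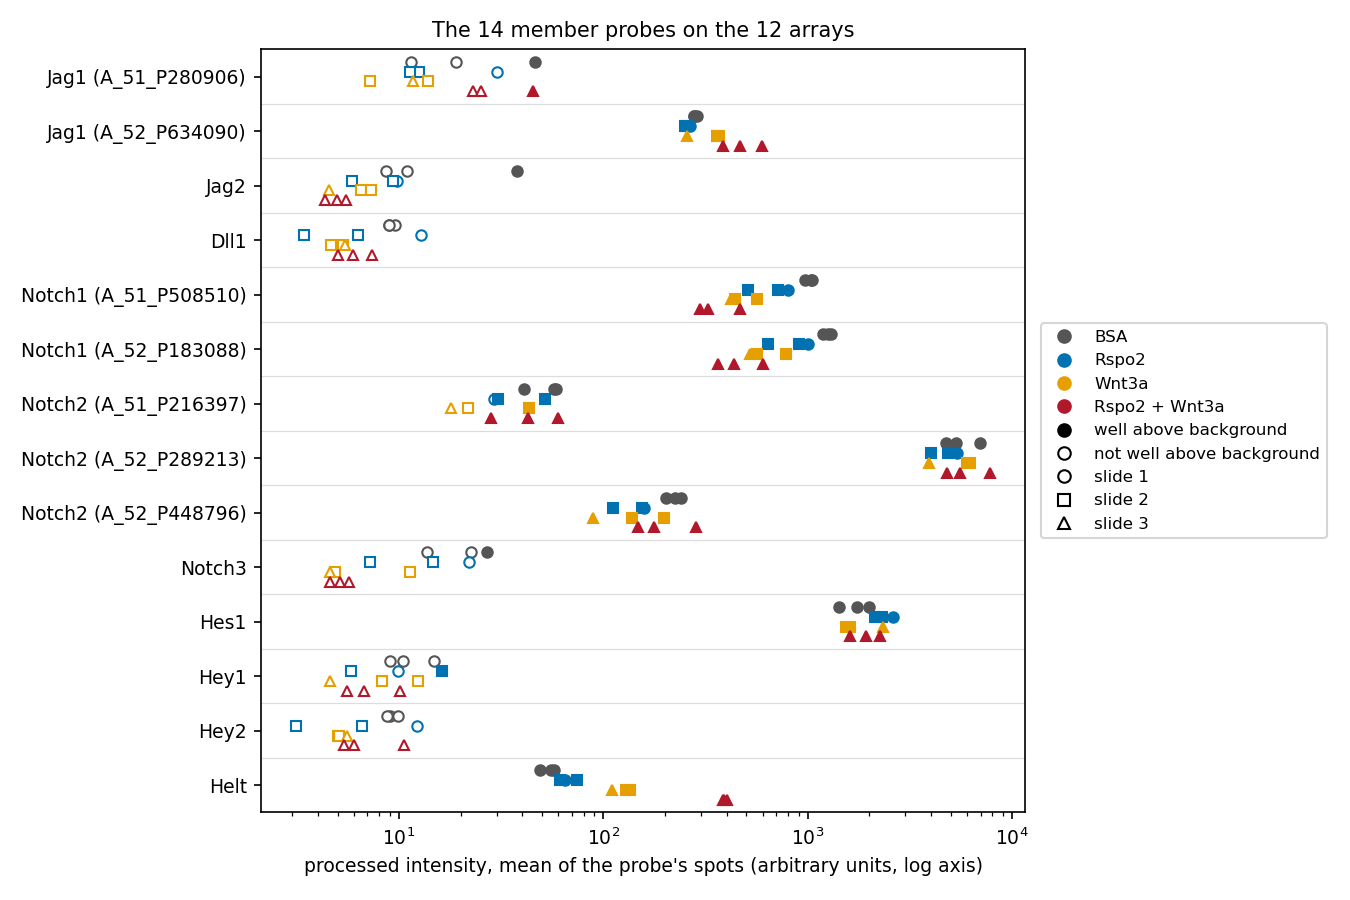
Processed intensity (x axis, arbitrary units, log scale) of the 14 member probes on each of the 12 arrays, coloured by treatment, with one symbol per slide; filled symbols are well above background and open symbols are not. The probes of *Jag2*, *Dll1*, *Notch3*, *Hey1* and *Hey2* stay at or below 37.6 with at most 1 filled symbol each, while *Notch1*, *Hes1* and *Helt* are filled on all 12 arrays.

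For the detected probes, intensities were divided by the 75th percentile of their array (relative intensity), and differences were tested on the log2 scale with limma across all 22751 detected probes. A probe passed with a Benjamini-Hochberg adjusted p under 0.05 and counted as changed if the difference was also at least 2-fold. The comparisons of Rspo2, Wnt3a and the combination with BSA share the same 3 BSA arrays, so they are not independent of each other. Each member's values below are therefore given side by side.

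Among the ligands, *Jag1*, which encodes Jagged1, was the only one detected, through 1 of its 2 probes. The relative intensity of probe A_52_P634090 was 0.300, 0.241 and 0.257 on the BSA arrays and 0.259, 0.295 and 0.316 on the Rspo2 arrays. It was 0.398, 0.475 and 0.319 on the Wnt3a arrays and 0.408, 0.484 and 0.566 on the combination arrays. BSA and Rspo2 arrays overlapped, whereas all Wnt3a and all combination arrays lay above all BSA arrays. *Jag1* rose by a log2 difference of 0.57 ± 0.16 (SE, 1.48-fold, adjusted p = 0.0227) with Wnt3a and of 0.86 ± 0.16 (1.82-fold, adjusted p = 0.00209) with the combination. With Rspo2 alone the difference was 0.13 (95% interval -0.23 to 0.49, adjusted p = 0.610), and the combination minus Wnt3a gave 0.30 (95% interval -0.06 to 0.65, adjusted p = 0.364). The Wnt3a call was lost when BSA replicate 2, BSA replicate 3, Wnt3a replicate 1 or Wnt3a replicate 2 was left out (log2 difference 0.43 to 0.56, adjusted p 0.0515 to 0.0882). Both calls were lost when the fit included slide (0.48, adjusted p = 0.450, and 1.07, adjusted p = 0.144) and with normexp background correction (0.42, adjusted p = 0.537, and 0.66, adjusted p = 0.215). The methods' unequal-variance test, with a Benjamini-Hochberg adjustment added here, lost both as well (adjusted p = 0.173 and 0.0541). With slide as a random block the Wnt3a call alone was lost (0.53, adjusted p = 0.0535). On slide 3 itself the 3 combination arrays exceeded the single Wnt3a array by 0.59. The other *Jag1* probe, A_51_P280906, annotated to the same transcript, was well above background only on BSA replicate 1 and combination replicate 1, the 2 arrays with the highest share of detected probes, and gave no comparison.

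Among the receptors, *Notch1* fell and *Notch2* showed no difference past the test. *Notch1* was measured by 2 probes, both well above background on all 12 arrays. Probe A_51_P508510 was printed as 10 spots per array, and the coefficient of variation among these spots was 3.60% to 6.59%. Its relative intensity was 1.10, 0.844 and 0.958 with BSA and 0.783, 0.812 and 0.646 with Rspo2. It was 0.625, 0.571 and 0.524 with Wnt3a and 0.314, 0.340 and 0.441 with the combination. The arrays of the 4 groups formed a descending series without overlap between neighbouring groups.

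The log2 difference of this *Notch1* probe from BSA was -0.37 ± 0.15 (SE, adjusted p = 0.103) for Rspo2, -0.75 ± 0.15 (1.68-fold lower, adjusted p = 0.00435) for Wnt3a and -1.41 ± 0.15 (2.67-fold lower, adjusted p = 5.75e-05) for the combination. The second probe, A_52_P183088, read 1.25, 1.09 and 1.19 with BSA, 0.982, 1.03 and 0.802 with Rspo2, 0.868, 0.728 and 0.650 with Wnt3a, and 0.387, 0.452 and 0.567 with the combination. Its BSA arrays were highest and its combination arrays lowest, as for the first probe, while 1 Wnt3a array lay within the Rspo2 range. The second probe gave -0.33 (adjusted p = 0.153), -0.66 (adjusted p = 0.00951) and -1.34 (2.54-fold lower, adjusted p = 0.000113) in the same order. Against Wnt3a alone, the combination was lower by log2 differences of -0.66 (adjusted p = 0.0306) and -0.68 (adjusted p = 0.0329) on the 2 probes, with no overlap between the arrays. The interaction of Rspo2 and Wnt3a, which asks whether the effect of Rspo2 differed in the presence of Wnt3a, was -0.29 (adjusted p = 0.383) and -0.35 (adjusted p = 0.315).

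The fall of *Notch1* with Wnt3a and with the combination passed on both probes whichever single array was left out. The smaller drop from Wnt3a to the combination did not. It was lost on both probes without BSA replicate 3, Wnt3a replicate 1, Wnt3a replicate 2, combination replicate 1 or combination replicate 2, and on A_52_P183088 also without BSA replicate 2 (log2 difference -0.70 to -0.55, adjusted p 0.0501 to 0.129 over both probes). When the fit included slide, the combination minus BSA was -1.11 (adjusted p = 0.176) and -0.94 (adjusted p = 0.256), and no *Notch1* call was kept. The Wnt3a calls of both probes were also lost with normexp background correction (adjusted p = 0.0965 and 0.0862). The methods' unequal-variance test, with a Benjamini-Hochberg adjustment added here, lost them too (adjusted p = 0.0657 and 0.0960). The combination calls passed under normexp (adjusted p = 0.00217 and 0.00260), while A_52_P183088 just missed in the unequal-variance test (adjusted p = 0.0513). Within slides, all values for A_51_P508510 were below 0. They were -0.30 for Rspo2 minus BSA on slide 1, -0.28 for Wnt3a minus Rspo2 on slide 2 and -0.54 for the combination minus Wnt3a on slide 3.

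*Notch2* had 3 probes that differed widely in brightness, and none passed in any of the 5 comparisons. The brightest, A_52_P289213, ran from 4.12 to 7.28 in relative intensity on the BSA arrays. It ran from 5.07 to 5.49 on the Rspo2 arrays, from 4.85 to 8.04 on the Wnt3a arrays and from 5.08 to 7.36 on the combination arrays. All groups overlapped, and the log2 difference of the combination from BSA was 0.18 (95% interval -0.32 to 0.69, adjusted p = 0.561). Probe A_52_P448796, annotated to the same cDNA, gave -0.09 (95% interval -0.65 to 0.48, adjusted p = 0.818) for this comparison. The dimmest probe, A_51_P216397, was well above background on 9 of the 12 arrays and gave -0.21 (95% interval -0.93 to 0.52, adjusted p = 0.659). These intervals are wide, and the interval of the brightest probe reaches a rise of 1.61-fold. With slide in the fit the sign for A_52_P448796 turned, to 0.74 (adjusted p = 0.516). The dimmest probe passed, as lower with Wnt3a, only when Wnt3a replicate 1 was left out.

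Among the Hes-related repressors, *Hes1* and *Helt* were detected. *Hes1*, a widely expressed Notch target, had relative intensities of 1.83, 1.73 and 1.32 with BSA and of 2.56, 2.64 and 2.69 with Rspo2. These were 1.78, 1.97 and 2.89 with Wnt3a and 2.39, 2.0 and 1.51 with the combination. The 3 Rspo2 arrays lay close together above all BSA arrays, whereas 2 of the 3 Wnt3a arrays and all combination arrays lay below them and overlapped the BSA range as groups. Rspo2 alone gave a log2 difference of 0.71 ± 0.20 (SE, 1.63-fold, adjusted p = 0.0405). Wnt3a gave 0.43 (adjusted p = 0.135), the combination 0.26 (95% interval -0.19 to 0.72, adjusted p = 0.337), and the interaction was -0.87 (adjusted p = 0.0802). The Rspo2 call for *Hes1* was lost without any single BSA array, any single Rspo2 array, Wnt3a replicate 2 or combination replicate 2 (log2 difference 0.56 to 0.80, adjusted p 0.0525 to 0.128). It was also lost with slide as a term (0.67, adjusted p = 0.262) or as a random block (0.73, adjusted p = 0.0531). The difference with the combination, which had not passed, turned to -0.42 (adjusted p = 0.692) when the fit included slide.

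*Helt* showed the largest difference of the detected members and was measured by 1 probe, A_52_P268852, well above background on all 12 arrays. It was dim, with intensities of 48.7 to 57.3 on the BSA arrays, where the dimmest intensity called well above background was 21.9 to 42.4. Relative intensities were 0.0583, 0.0499 and 0.0451 with BSA and 0.0635, 0.0701 and 0.0932 with Rspo2. They were 0.151, 0.167 and 0.136 with Wnt3a and 0.427, 0.399 and 0.369 with the combination. No array of one group reached into the range of another, and the order was BSA, Rspo2, Wnt3a, combination.

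The log2 difference of *Helt* from BSA was 0.55 ± 0.15 (SE, 1.47-fold, adjusted p = 0.0333) with Rspo2, 1.57 ± 0.15 (2.97-fold, adjusted p = 0.000126) with Wnt3a and 2.97 ± 0.15 (7.82-fold, 95% interval 6.24 to 9.82, adjusted p = 3.82e-07) with the combination. The combination exceeded Wnt3a alone by 1.40 (2.64-fold, adjusted p = 0.000365). The interaction was 0.84 ± 0.21 (adjusted p = 0.0362), so the difference made by Rspo2 was 0.55 without and 1.40 with Wnt3a. *Helt* remained past the test for Wnt3a, for the combination and for the combination against Wnt3a whichever array was left out. The Rspo2 call was lost without any single BSA array, Rspo2 replicate 2, Rspo2 replicate 3 or combination replicate 2 (0.39 to 0.65, adjusted p 0.0523 to 0.111). The interaction was lost on leaving out any array other than Rspo2 replicates 1 and 3 (0.75 to 0.93, adjusted p 0.0509 to 0.0819).

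Because the slides carry the groups unevenly, *Helt* was also followed within slides. On slide 1 the Rspo2 array exceeded the mean of the BSA arrays by 0.32, on slide 2 the Wnt3a arrays exceeded the Rspo2 arrays by 0.97, and on slide 3 the combination arrays exceeded the Wnt3a array by 1.55. When the fit included slide as a term, the combination minus BSA was 2.84 (adjusted p = 0.00382) and the combination minus Wnt3a 1.55 (adjusted p = 0.00569), and both passed. This fit draws on the same within-slide differences, so it is no separate check from them. Its link to BSA runs through the single Rspo2 array on slide 1. Its link from Wnt3a to the combination runs through the single Wnt3a array on slide 3. Wnt3a minus BSA was then 1.30 (adjusted p = 0.0614), Rspo2 minus BSA 0.32 (adjusted p = 0.403) and the interaction 1.22 (adjusted p = 0.0910). Normexp background correction in place of the scanner's own added an offset of 50, close to the *Helt* intensities on the BSA arrays (48.7 to 57.3). The part of this offset in the values below was not tested. With this correction the SE of *Helt* was 0.52, beside 0.15 in the main fit, and none of its calls was kept. Rspo2 minus BSA rose from 0.55 to 0.71 (adjusted p = 0.805), while the other differences from BSA and from Wnt3a fell. The combination minus BSA was then 1.61 (adjusted p = 0.115), Wnt3a minus BSA 0.61 (adjusted p = 0.653) and the combination minus Wnt3a 1.00 (adjusted p = 1.0). The methods' unequal-variance test, with a Benjamini-Hochberg adjustment added here, also lost the combination minus Wnt3a (adjusted p = 0.114). At the methods' own threshold of 2-fold and an unadjusted p under 0.05, 1 member probe passed this comparison. That probe was *Helt*, the only member with a 2-fold difference there. The share of all probes at this threshold was not counted. Without the 2-fold requirement, 3 of the 8 member probes and 2456 of all 22751 probes passed.

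**Figure D2:**
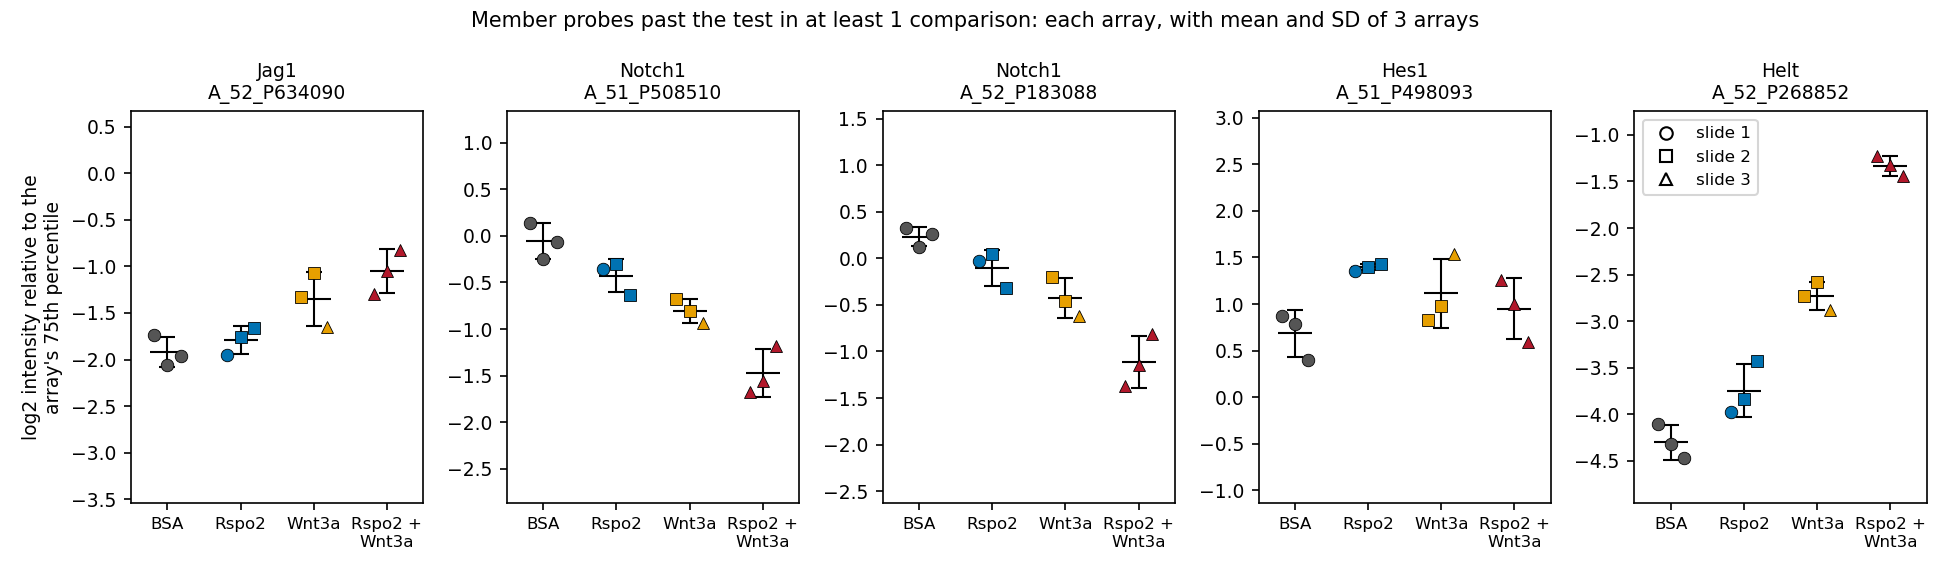
Relative level (y axis, log2 intensity minus the log2 75th percentile of the array, all panels spanning the same range) of the 5 member probes that passed in at least 1 comparison, for each of 3 arrays per group (points, one symbol per slide) with the mean and SD (bars). *Helt* climbs from about -4.30 with BSA to -1.33 with the combination, both *Notch1* probes descend, *Jag1* is higher with Wnt3a and the combination, and *Hes1* is highest as a group with Rspo2 alone.

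Counted over the 8 detected member probes, 2 passed with Rspo2, against 16.8% of all tested probes. Both (*Helt* and *Hes1*) were higher, as were 10.9% of all probes, and none was lower, as were 5.92%. With Wnt3a 4 passed, against 31.5% of all probes. Of these, 2 were higher (*Helt* and *Jag1*; 18.3% of all probes) and 2 lower (both *Notch1* probes; 13.2% of all probes). The same 4 probes passed with the combination, against 39.2% of all probes, with 21.9% of all probes higher and 17.3% lower. For the combination against Wnt3a 3 passed, against 4.27% of all probes. Of these, *Helt* was higher (1.78% of all probes) and the *Notch1* probes lower (2.49%). For the interaction 1 passed (*Helt*), against 8.9% of all probes. The median log2 difference of the 8 probes was -0.14 with Rspo2, -0.04 with Wnt3a and 0.05 with the combination, beside 0.01, -0.00 and 0.04 over all tested probes. Changed at least 2-fold were 0, 1 and 3 member probes in the 3 comparisons with BSA, where 0.721%, 2.52% and 5.08% of all probes were changed, and 1 was changed for the combination against Wnt3a (0.747%). In each of these 3 comparisons the arrays of 4 member probes did not overlap, as was the case for 43.5%, 45.5% and 54% of all probes, and for the combination against Wnt3a this held for 3 member probes and for 21.4% of all probes. With so few members, 2 of them probes of the same gene, these shares describe the list and nothing more.

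**Figure D3:**
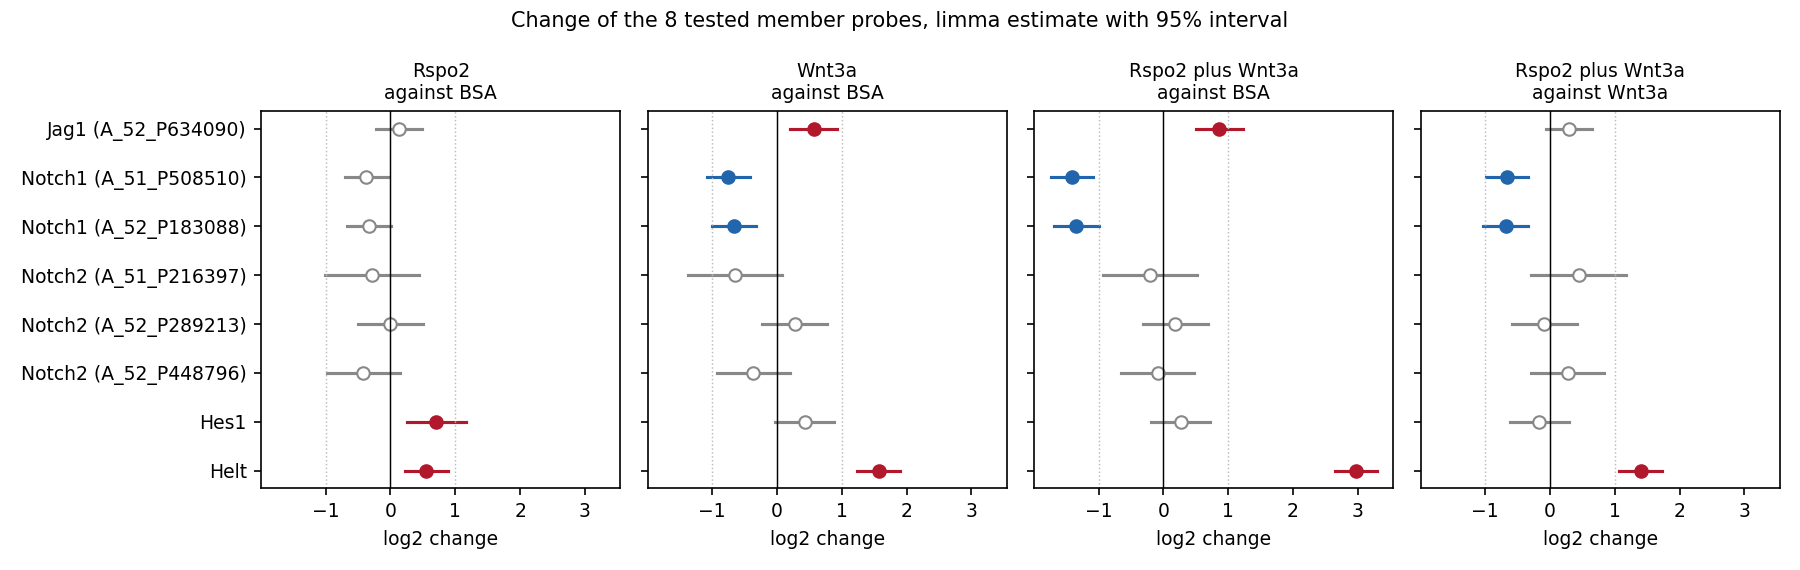
Log2 change (x axis) with its 95% interval for the 8 detected member probes (rows) in 4 comparisons (panels); filled red is higher and filled blue lower with an adjusted p under 0.05, open grey did not pass, and dotted lines mark 2-fold. *Helt* reaches 2.97 and the *Notch1* probes -1.41 and -1.34 with Rspo2 plus Wnt3a against BSA, while the 3 *Notch2* probes straddle 0 in every panel.

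The genes whose pattern over the 12 arrays was most like that of the 2 changed members were also listed, as a description without a test. For *Helt* they were *Edn1* (endothelin 1, Pearson r = 0.994), *Adk* (adenosine kinase, r = 0.993) and *Igf1* (insulin-like growth factor 1, r = 0.992). Their log2 differences from BSA with the combination were 2.08, 0.97 and 1.80, against 2.97 for *Helt*. For the brighter *Notch1* probe they were *Tnfrsf1b* (a tumour necrosis factor receptor, r = 0.994), *Elovl6* (a fatty acid elongase, r = 0.987) and *Masp1* (a complement-activating protease, r = 0.984), with differences of -1.05, -0.71 and -1.62 against -1.34 for *Notch1*. These values were picked as the highest among 20538 and 20537 named probes that share the same arrays, scaling and groups.

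Beyond the members, 55 further genes of the pathway were examined, each through its brightest detected probe, and 42 of them were detected. Counted by probe, 22751 of 41174 on the array were detected. With Rspo2 alone 3 were higher and 2 lower past the test, with Wnt3a 5 and 8, and with the combination 5 and 13. The share that passed was 11.9%, 31.0% and 42.9%, next to 16.8%, 31.5% and 39.2% of all tested probes. By direction, 10.9%, 18.3% and 21.9% of all tested probes were higher and 5.92%, 13.2% and 17.3% lower. The median log2 difference with the combination was -0.08 next to 0.04. When the fit included slide, 0 of the 42 genes passed with Rspo2 and 1, *Bhlhe40*, passed with Wnt3a and with the combination, where 0.431%, 0.796% and 2.51% of all probes passed. With normexp background correction 0 passed with Rspo2 and 1 (*Bhlhe40*) with Wnt3a, and with the combination 1 was higher (*Bhlhe40*) and 2 lower (*Mib2* and *Tle2*), where 0.0176%, 0.479% and 4.62% of all probes passed. For 17 of the 42 genes more than 1 probe was detected, and with the combination the probes of 4 of these genes (*Aph1b*, *Numb*, *Dtx3* and *Tle1*) differed in whether they passed, never with opposite calls.

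Among further receptors and ligands, *Notch4*, which encodes the fourth Notch receptor, had relative intensities of 0.276, 0.256 and 0.259 with BSA and of 0.176, 0.161 and 0.195 with the combination. These did not overlap, and the log2 difference was -0.58 (adjusted p = 0.00354), beside -0.38 (adjusted p = 0.0339) with Wnt3a and -0.30 (adjusted p = 0.0987) with Rspo2. *Dner*, a Notch-binding membrane protein, was 0.41 higher with Rspo2 (adjusted p = 0.0461) and 0.57 lower with the combination (log2 difference -0.57, adjusted p = 0.00444), with an interaction of -1.14 (adjusted p = 0.00551). Its other detected probe also passed with the combination (-0.99, adjusted p = 0.00211) but not with Rspo2 (0.26, adjusted p = 0.345). That probe was well above background on only 1 combination array, so its size of fall is uncertain. Both calls of the first *Dner* probe were lost when the fit included slide (0.19, adjusted p = 0.546, and -0.90, adjusted p = 0.137). The ligand genes *Dll3* and *Dlk1* were well above background on none of the arrays and *Dll4* on 4 of them, so they were not tested. Of the 4 detected genes for enzymes that glycosylate Notch, including *Lfng* (Lunatic fringe; 0.06, adjusted p = 0.786), none passed with the combination.

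Of 9 detected protease genes, 1 was higher and 3 lower with the combination (44.4%), near the 39.2% of all tested probes that passed (21.9% higher, 17.3% lower). *Psenen*, a subunit of gamma-secretase, was higher (0.54, adjusted p = 0.00975), while *Psen2*, a catalytic subunit (-0.48, adjusted p = 0.00775), *Furin*, which cleaves Notch during its maturation (-0.38, adjusted p = 0.00918), and *Adam17* (-0.33, adjusted p = 0.0221) were lower. *Aph1b*, another subunit, gave 0.11 (adjusted p = 0.576) on its brightest probe but -0.43 and -0.45 on its 2 dimmer ones. Of 11 genes for ubiquitin ligases and trafficking factors, 4 were lower (36.4%) and none higher, next to 17.3% of all tested probes lower and 21.9% higher. The lower ones included *Mib2*, which acts on Notch ligands (-0.69, adjusted p = 0.00252), and *Numb*, a Notch inhibitor (-0.37, adjusted p = 0.00610, with 1 of its 3 probes not passing).

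With the combination 3 of the 42 further genes (7.14%) changed at least 2-fold, next to 5.08% of all probes, and 2 of these were nuclear factors. *Rbpj* itself was bright, with relative intensities of 4.99, 4.39 and 4.34 with BSA, 3.69, 3.88 and 3.03 with Rspo2, 3.75, 3.82 and 3.75 with Wnt3a, and 2.90, 3.45 and 3.43 with the combination. All treated arrays lay below all BSA arrays, and the log2 difference was -0.38 (adjusted p = 0.0406) with Rspo2, -0.28 (adjusted p = 0.0768) with Wnt3a and -0.49 (adjusted p = 0.00513) with the combination. Its paralogue *Rbpjl* read 0.103, 0.0990 and 0.10 with BSA and 0.289, 0.251 and 0.249 with the combination. That was a log2 difference of 1.38 (2.61-fold, adjusted p = 6.24e-05), and with Wnt3a alone it was 0.83 (adjusted p = 0.00271).

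*Tle2*, a Groucho-type corepressor, read 1.35, 1.66 and 1.60 with BSA, 1.38, 1.57 and 1.46 with Rspo2, 1.08, 1.19 and 0.833 with Wnt3a, and 0.641, 0.472 and 0.470 with the combination. The Rspo2 arrays lay among the BSA arrays, and the other 2 groups lay below them. The log2 difference was -0.58 (adjusted p = 0.0168) with Wnt3a and -1.55 (2.94-fold lower, adjusted p = 4.19e-05) with the combination, and the interaction was -0.90 (adjusted p = 0.0339). When the fit included slide, *Tle2* gave -1.24 (adjusted p = 0.0913) and *Rbpjl* 1.32 (adjusted p = 0.0930) for the combination, and both calls were lost. Their Wnt3a calls were lost as well (-0.57, adjusted p = 0.369, and 0.94, adjusted p = 0.179).

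Among other repressors related to Hes, *Hes5*, *Heyl* and the feedback inhibitor *Nrarp* were not detected. *Hes5* and *Heyl* were each well above background on 2 arrays and *Nrarp* on none, while *Hes2* (0.31, adjusted p = 0.0660) and *Hes6* (0.17, adjusted p = 0.360) were detected and did not pass with the combination. *Bhlhe40*, a related basic helix-loop-helix repressor, read 1.18, 1.28 and 1.26 with BSA, 1.46, 1.49 and 1.45 with Rspo2, 2.32, 2.40 and 1.85 with Wnt3a, and 3.51, 3.88 and 3.95 with the combination. No groups overlapped, in the same order as for *Helt*. Its log2 difference was 0.24 (adjusted p = 0.114) with Rspo2, 0.81 (adjusted p = 0.000571) with Wnt3a and 1.61 (3.05-fold, adjusted p = 1.43e-06) with the combination, and the interaction was 0.55 (adjusted p = 0.0400). When the fit included slide, the combination gave 1.95 (adjusted p = 0.00134). Its paralogue *Bhlhe41* was lower with the combination (-0.55, adjusted p = 0.0225).

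**Figure D4:**
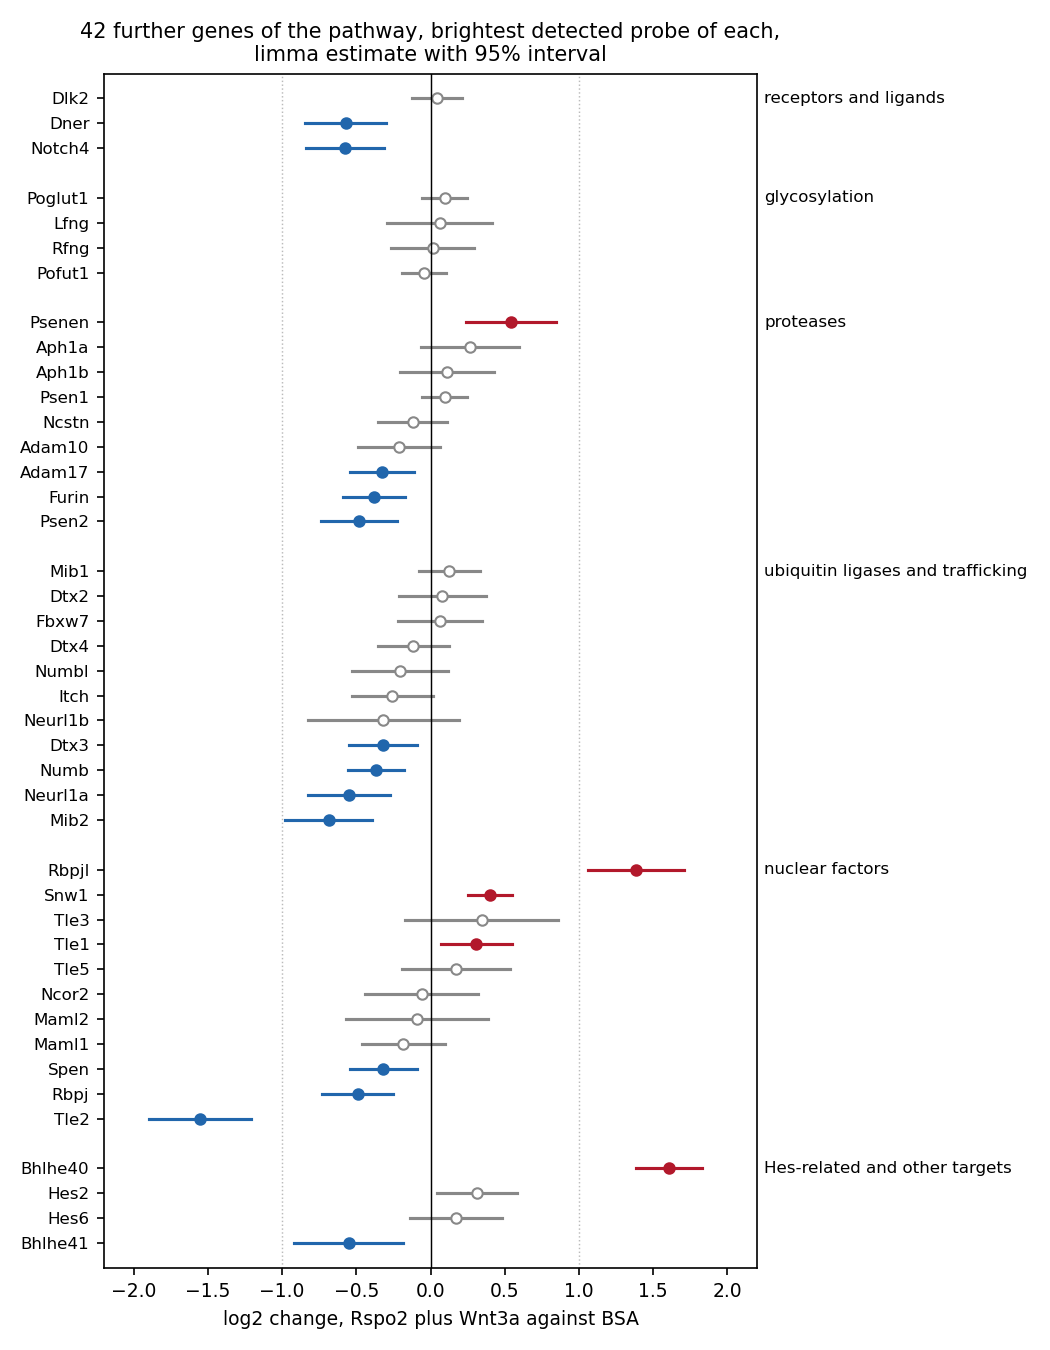
Log2 change with Rspo2 plus Wnt3a against BSA (x axis) and its 95% interval for the 42 detected further pathway genes (rows, grouped by role), with filled red higher and filled blue lower at an adjusted p under 0.05, open grey not passing, and dotted lines at 2-fold. *Bhlhe40* and *Rbpjl* lie above and *Tle2* below the 2-fold lines, and the other 15 genes that passed lie within them.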

How the data were processed

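Total RNA from 12 C57MG monolayers was labelled and hybridized by the authors to Agilent whole mouse genome arrays, which were read with Agilent Feature Extraction 9.5.3.1. Per the file headers, the deposited intensity is background-subtracted and spatially detrended but not scaled between arrays and carries a per-spot flag for signal above background. A deposited value table by the authors holds the ratio of each probe to the 75th percentile of its array and was used as an alternative. The genome build of the probes is not given in the sources used here.

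The 1327 of 520548 spot values flagged as uneven or outliers were left out (11 of them members, none saturated), and the remaining spots of a probe were averaged. Values were log2 intensities minus the 75th percentile of the array. Detected probes (22751 of 41174) entered 1 limma fit (lmFit and eBayes, limma 3.58.1 in R 4.3.3) of the 4 groups, with 5 contrasts and Benjamini-Hochberg adjustment over all tested probes. The fit was also run on simulated arrays with independent noise and no slide effect, so that run says nothing about the uneven slides. Older symbols were updated through RefSeq accessions, and 34709 probes had a symbol. Figures were drawn with matplotlib.

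Members and gene lists were chosen with earlier results of these data known. Named genes were all members, 8 fixed pathway genes, further pathway genes changed at least 2-fold, and the 3 nearest patterns of each changed member; other pathway genes were named as examples after their values were seen. Samples were grouped by their labels. Replicate numbers share no stated day or batch. The limma p-values rest on the spread between the 3 monolayers of a group, pooled over all groups and moderated over all tested probes. For Rspo2 and Wnt3a, whose arrays span slides, that spread includes differences between slides. Alternatives covered background correction (normexp with an offset of 50), scaling, filters, test, slide, replicate block and each array left out.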

Additional observations from a re-analysis of the deposited data

Results flagged for a closer look

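In the main fit the effect of Rspo2 on *Helt* differed by the presence of Wnt3a, but most alternatives lost this call. The log2 difference made by Rspo2 was 0.55 without and 1.40 with Wnt3a, and the interaction term was 0.84 (limma, adjusted p = 0.0362). All 3 combination arrays were above all 3 Wnt3a arrays, and all 3 Rspo2 arrays were above all 3 BSA arrays. Groups did not overlap in these comparisons for 21.4% and 43.5% of all probes, and such separation does not bear on the interaction. The interaction was 0.94 (adjusted p = 0.0248) from the authors' value table, 0.93 (adjusted p = 0.0485) with slide as a random block, 1.22 (adjusted p = 0.0910) with slide as a term and 0.29 (adjusted p = 0.925) with normexp background correction. Over 24 alternatives the adjusted p ranged from 0.0171 to 0.925. The call was kept in 8 and lost in 16 of them, including 10 of the 12 fits with 1 array left out. Quantile normalization, the replicate block and both other filters on dim probes also lost it. The 4 groups lie unevenly on the 3 slides, and the part of the slides in this value was not tested beyond these fits.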

How the results depend on the processing

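No member difference that passed the test was reversed under any alternative run. Of the single-probe values, 915 kept their side of the threshold, 103 lost it and 1 gained it (*Notch2* with Wnt3a). The 915 include the many values that passed in neither fit, and all losses fell on values that had passed. For these, losses ran from 1 of 26 alternatives, as for *Helt* with the combination, to 17 of 26 for *Hes1* with Rspo2 and 16 of 24 for the *Helt* interaction. Differences that had not passed could change sign: with slide as a term *Notch2* (A_52_P448796) with the combination went from -0.09 to 0.74, *Hes1* with the combination from 0.26 to -0.42 and *Jag1* with Rspo2 from 0.13 to -0.03. Counts of member probes that passed were 2 with Rspo2, 4 with Wnt3a, 4 with the combination, 3 for the combination against Wnt3a and 1 for the interaction. With normexp background correction they became 0, 0, 2, 0 and 0, where 0.0176%, 0.479%, 4.62%, 0.136% and 0.0132% of all probes passed, and probes changed at least 2-fold fell to 0 with Wnt3a and to 0 for the combination against Wnt3a. With slide as a term they became 0, 0, 1, 1 and 0 (0.431%, 0.796%, 2.51%, 1.38% and 0.743% of all probes), with 0 changed for Wnt3a and 1 changed for the combination; slide as a random block gave 0 with Rspo2 and 1 for the combination against Wnt3a. The methods' t-test with Benjamini-Hochberg adjustment gave 0, 1, 2 and 0 (0 changed for the combination against Wnt3a), where 2, 1545, 3342 and 16 of all 22751 probes passed. At an unadjusted p under 0.05 it gave 1, 3, 4 and 3, where 5495, 6950, 8995 and 2456 of all 22751 probes passed. Without a filter on dim probes, and with the scanner's positive and significant flag as filter, the counts were 0 with Rspo2, 1 for the combination against Wnt3a and 0 for the interaction. With Rspo2, 1 probe passed under quantile normalization (0 for the interaction), under a 75th percentile over probes always above background, from the authors' value table, and with only the groups compared in the fit (1 also for the combination against Wnt3a). Fitting an intensity trend, keeping uneven spots and requiring all 12 arrays above background moved none of these counts by over 1.5 times.

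Leaving out 1 array at a time gave 0 to 2 probes past the test with Rspo2, 3 to 4 with Wnt3a, 4 with the combination, 1 to 3 for the combination against Wnt3a and 0 to 1 for the interaction (0 to 1 changed, the 1 without Rspo2 replicate 3). After removal of group means, r exceeded 0.1 in 4 of 18 same-numbered pairs of arrays (-0.41 to 0.27). Pairs with unlike numbers were not compared, so whether replicate numbers pair the arrays was not settled. The replicate block gave 0 with Rspo2 (*Helt* adjusted p = 0.0727), 1 for the combination against Wnt3a and 0 for the interaction (*Helt* 0.84, adjusted p = 0.0785). The median log2 difference of all probes moved by over 0.1 under normexp (0.15 with Rspo2, -0.06 with the combination) and under the 75th percentile over probes always above background (-0.12 with Wnt3a, -0.07 with the combination). Depth is set here by signal over background, which leaves 5 member genes without a comparison. The causes of these shifts were not tested.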
